A study of Mus musculus with 39 samples.

Results

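The genes of the cytosolic ribosomal proteins were followed in cultures of fibroblasts from mouse lung that received C1q, a blood protein with which the classical pathway of complement begins. Members were all rows of the count table named Rpl or Rps with a number, Rplp with a number, or Rpsa. Pseudogene names ending in "-ps" (23 rows) and the S6 kinase genes named Rps6k (10 rows) were left out. The rule found 90 genes among 30012 rows, and 88 of them had enough counts to be tested. Rpl3l, with 2 counts in all libraries together, and Rpl39l, with 19, could not be tested. The 90 genes comprise 77 core genes, 31 for the small 40S subunit and 46 for the large 60S subunit, and 13 genes with other names, such as paralogues and retrogenes.

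Every library came from lung cells of wild-type C57BL/6 mice, kept after magnetic removal of cells with CD45, CD31, EpCAM, CD146 or Ter119 on their surface. All wells were starved of serum for 24 h. C1q was then given at 1, 10 or 100 µg/ml for 2, 24, 48 or 72 h, which gives 12 groups, and the untreated cells were taken at 0 h. Each group has 3 libraries. No group was kept in culture without C1q for the later times, so in a comparison with untreated cells the effects of C1q and of time in culture cannot be told apart. No fibroblast marker was selected for, and cells that escaped the depletion remain in the cultures.

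Ribosomal proteins are the protein parts of the ribosome, the machine that reads mRNA and joins amino acids. Their genes are among the most active in dividing cells, and cells adjust them as a group to growth signals. In mammals most of these mRNAs begin with a run of C and T bases at the 5′ end, the terminal oligopyrimidine or TOP motif, through which the kinase complex mTORC1 and the RNA-binding protein LARP1 set their translation and stability.

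The bases around a transcript start listed by RefSeq are shown for 9 genes on which the results turn, because the library method reads mRNA from its 5′ end and this is where TOP motifs lie. Sequences are from RefSeq, build GRCm38.p6, on the strand of the gene, 5′ to 3′, with the longest run of C and T in capitals. A listed start can lie inside the outer limit of its gene, as for Rps9 and Rps12, and runs were searched relative to the listed start. A run in capitals can thus lie before the listed start, outside the listed transcript, or after it.
Rps6, chr4:86857349-86857378 (minus strand): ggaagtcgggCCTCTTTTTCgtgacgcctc
Rps12, chr10:23787182-23787211 (minus strand): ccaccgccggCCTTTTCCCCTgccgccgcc
Rpl28, chr7:4792952-4792981 (plus strand): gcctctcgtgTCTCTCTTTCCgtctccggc
Rpl35a, chr16:33056467-33056496 (plus strand): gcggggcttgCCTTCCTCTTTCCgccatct
Rpl22l1, chr3:28805499-28805528 (plus strand): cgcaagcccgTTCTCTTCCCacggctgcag
Rps9, chr7:3704025-3704054 (plus strand): aaccgccttgTCTCTCTTTgtctcgggcct
Rps27, chr3:90213631-90213660 (minus strand): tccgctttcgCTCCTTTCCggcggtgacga
Rpsa, chr9:120127776-120127805 (plus strand): cggccgcccgTCCTTTCgcgctacccgggg
Rplp0, chr5:115559468-115559497 (plus strand): gaccgcctggTTCTCCTataaaaggcacac
In the table of starts, 80 starts belong to 68 members. A run of at least 8 bases made only of C and T, searched on the strand of the gene from 30 bases before to 50 bases after the listed start, was present at 55 of those 80 starts (68.8%). The same search found a run at 9527 of 32851 starts of all genes (29%). The longest run had a median length of 10 bases at the members' starts and 6 bases at all starts. These are matches of letters and not measured start sites. The longest runs of Rpsa and Rplp0 have 7 bases and fall short of that length.

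Library totals ran from 1806106 to 3012518 counts. Replicate 3 of the 1 µg/ml group at 24 h stands apart: it gave 7.80% of its counts to ribosomal protein genes, against 10.05% and 9.32% in replicates 1 and 2. Another spelling of the column name is found for 9 libraries, which are that replicate 3, the whole 10 and 100 µg/ml groups of 24 h, and replicates 1 and 2 of the 48 h group of 1 µg/ml. The comparisons of 100 or 10 with 1 µg/ml at 24 and 48 h therefore cross both spellings, while those at 2 and 72 h do not. The untreated libraries all have the common spelling. In the comparisons of 10 and 100 µg/ml at 24 h with untreated cells, group and spelling therefore cannot be told apart. Every step in time crosses both spellings too, that from 48 to 72 h through the 1 µg/ml group of 48 h. In the comparisons of 1 µg/ml at 24 and 48 h with untreated cells, some libraries of the group have the other spelling. A single row, LOC118568312, held 6.75% to 12.8% of the counts as a group mean. Of the markers of the labelled cell type, Col1a1 ran from 871 to 1764 CPM (a count relative to its library total, corrected by edgeR's TMM factor) over the 39 libraries and Pdgfra from 355 to 702. The gene of the depleted surface protein CD45, Ptprc, ran from 1.02 to 15.8 CPM and was detected in every library.

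The members' summed share of all counts was lowest in the cultures given 100 µg/ml for 72 h. In the libraries of untreated cells they took 10.28%, 10.28% and 9.68% of the counts. After 2 h the mean share was 9.31% ± 0.573 at 1 µg/ml, 8.71% ± 0.721 at 10 µg/ml and 9.62% ± 0.401 at 100 µg/ml (SD, n = 3 each, as for all shares). After 24 h it was 9.06% ± 1.15, 9.46% ± 0.185 and 7.04% ± 0.157 in order of dose. At 48 h the same order gave 7.57% ± 0.346, 7.66% ± 0.571 and 6.12% ± 0.0957, and at 72 h 7.16% ± 0.426, 7.02% ± 0.195 and 5.10% ± 0.117. From 24 h on, every library of 100 µg/ml lay below every library of 1 and 10 µg/ml of the same time, and at 2 h the doses overlapped. Both subunits took part: at 100 µg/ml and 72 h the 40S genes held 2.16% ± 0.0313 of the counts, against 4.35% ± 0.120 in untreated cells, and the 60S genes 2.94% ± 0.0911, against 5.73% ± 0.227. The rows with "-ps" names, which can draw reads from the genes they copy, held 0.196% ± 0.00613 at 100 µg/ml and 72 h, against 0.424% ± 0.0116 in untreated cells. In bulk RNA, fewer cells of a type and less RNA per cell cannot be told apart.

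**Figure D1:**
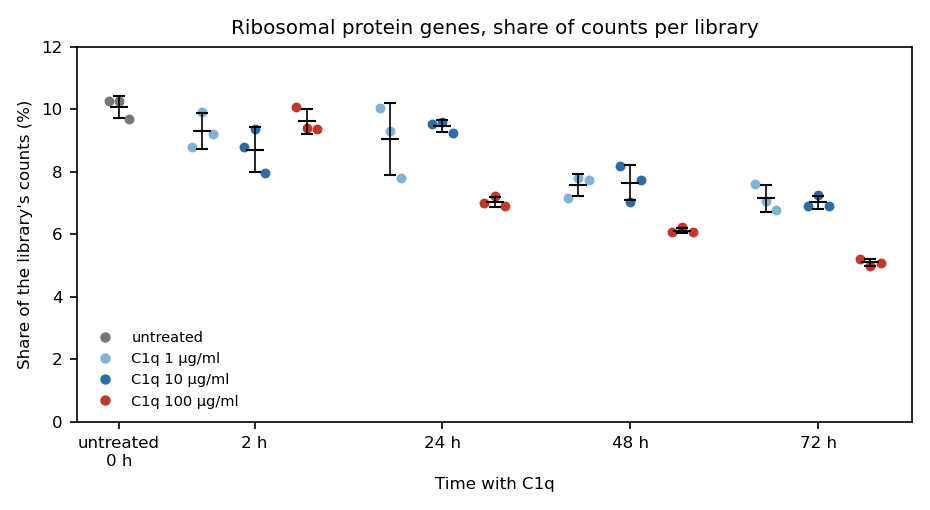
Share of all counts (%, axis from 0) held by the 90 ribosomal protein genes in each of the 39 libraries, by C1q dose and time; points are libraries, bars the mean ± SD of 3. The 100 µg/ml libraries at 72 h lie between 4.99% and 5.22%, and the untreated ones between 9.68% and 10.28%.

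Relative to untreated cells, few members were called after 2 h. At an adjusted p under 0.05 (edgeR's quasi-likelihood test, Benjamini-Hochberg over 14419 genes, the rule for every call here), 0 of 88 were called at 1 µg/ml, where 1.87% of all genes were called lower and 4.28% higher, and 0 at 100 µg/ml, where 2.02% were called lower and 3.14% higher. Without adjustment, p was under 0.05 for 1 and 2 members, and DESeq2 called 0 in both. Counts at an unadjusted p stand without the share of all genes, here and below, and are not read as results about the members. At 10 µg/ml none rose (7.64% of all genes) and 3 fell (5.1%), namely Rpl26 (log2 difference -0.37 ± 0.11, SE), Rpl27a (-0.32 ± 0.10) and Rps12 (-0.29). That count ran from 0 to 21 on leaving out single libraries (21 without replicate 2 of the group), and was 32 with upper-quartile factors and 15 with library totals alone.

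At 24 h the doses parted. At 100 µg/ml 84 of 88 members fell, where 19.9% of all genes were called lower, with a median log2 difference of -0.64 and a range of -1.05 to -0.12. The median of all genes was 0.05. The columns of this group are all spelled otherwise than the untreated ones, as are those of 10 µg/ml. At 1 µg/ml 15 fell (14.3% of all genes), with Rps2 lowest at -0.77 ± 0.10, and leaving out replicate 3 of that dose made this 3, leaving out replicate 1 made it 51, and leaving out untreated replicate 1 or 2 made it 9 or 8. No member rose at 1 or 100 µg/ml, where 10.9% and 16.8% of all genes did. At 10 µg/ml 7 fell (15.3% of all genes) and 4 rose, where 12.5% of all genes were called higher: Rps9 (0.33), Rps28 (0.36), Rps27rt (0.36) and Rps27 (0.44).

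At 48 h the members that fell numbered 57 at 1 µg/ml (17.1% of all genes), 44 at 10 µg/ml (17.5%) and 84 at 100 µg/ml (20.9%). At 10 µg/ml 2 rose, where 17% of all genes were called higher, Rps27 (0.32) and Rps27rt (0.42), and none at 1 or 100 µg/ml (16% and 19.1%). The median log2 differences of the members were -0.34, -0.27 and -0.73 in order of dose.

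At 72 h the numbers that fell were 71 (20.1% of all genes), 66 (20.6%) and 88 (23.3%) in order of dose, with medians of -0.39, -0.40 and -0.999. No member rose, where 18.1%, 19.3% and 22.5% of all genes did. At 100 µg/ml the 31 core 40S genes had a median of -0.99 and the 46 core 60S genes one of -1.03, and the range over the 88 was -1.78 to -0.34. Abundant genes were called more often in general: of 469 other genes with a mean log2 CPM of at least 8, 46.5% were called lower in the same comparison, and 79 members exceed that level. Every library of 100 µg/ml lay below every untreated library in 14 members at 2 h (13.1% of all genes), 86 at 24 h (24.8%), 84 at 48 h (25.7%) and 87 at 72 h (27%).

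**Figure D2:**
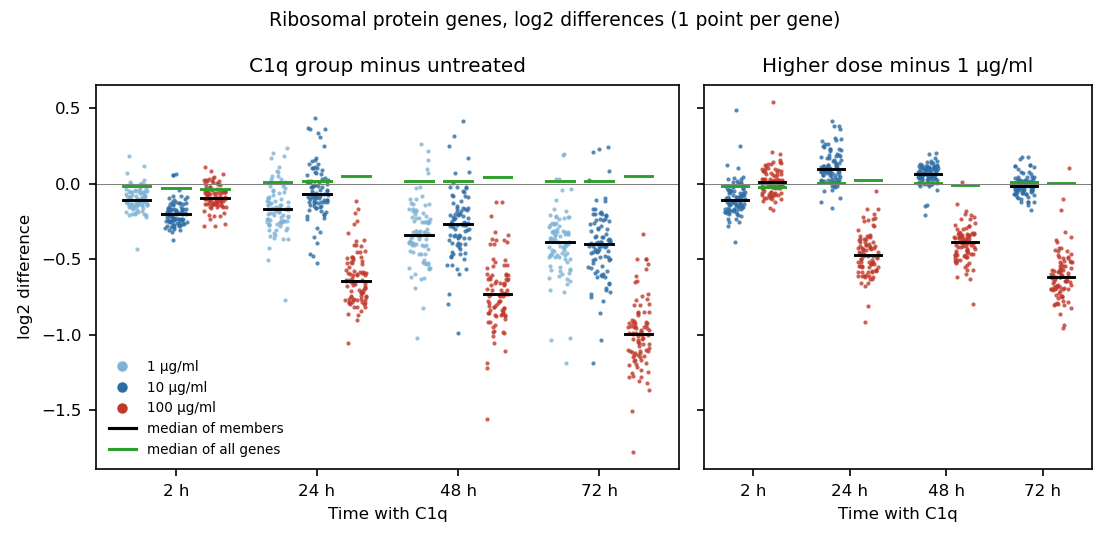
Log2 differences of the 88 tested members, 1 point per gene: C1q groups minus untreated cells (left) and 10 and 100 minus 1 µg/ml at each time (right). Black bars are the members' medians, green bars the medians of all 14419 genes; at 100 µg/ml and 72 h the members' median is -0.999 and the median of all genes 0.05.

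The difference between doses at a fixed time is not confounded with time in culture. At 2 h 0 of 88 members were called between 100 and 1 µg/ml, where 1.94% of all genes were called lower, as were 5.33% of the abundant others. An unadjusted p under 0.05 was found for 3 members, all higher at 100 µg/ml, and DESeq2 called 0. At 24 h 76 fell (7.21% of all genes, and 33.7% of the 469 abundant others), with a median log2 difference of -0.47. At 48 h 69 fell (6.44% of all genes, 30.3% of the abundant others) with a median of -0.39, and at 72 h 84 (6.51% and 27.7%) with a median of -0.62. All 77 core genes were among those 84. The members not called at 72 h were Rpl6l, Rpl7l1, Rps19bp1 and Rps4l, each with another name. No member rose at 2, 24, 48 or 72 h, where 1.28%, 3.77%, 3.82% and 4.99% of all genes did.

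The spelling of the column names and the library that stands apart bear on the counts at 24 and 48 h. At each of these times 1 library of 1 µg/ml has a column spelled like those of 100 µg/ml. With that library alone, far fewer members were called lower at 24 h, and fewer at 48 h. The share of all genes called in these fits is not given, and the part of the smaller number of libraries was not tested. In these fits the lone library is assumed to vary like the other groups. Leaving out single libraries gave 46 to 82 at 24 h (46 without replicate 1 and 82 without replicate 3 of 1 µg/ml), 38 to 68 at 48 h (38 without replicate 1 of 100 µg/ml, 42 without replicate 3 of 1 µg/ml) and 79 to 85 at 72 h. The columns of 100 and 10 µg/ml share 1 spelling within each time, and that comparison, added after the data were seen, called 0 members at 2 h (2.64% of all genes lower), 83 lower at 24 h (6.66%), 80 at 48 h (6.17%) and 85 at 72 h (6.37%). At 2 h 13 had an unadjusted p under 0.05 and DESeq2 called 0. No member rose in it, where 0.888%, 3.37%, 3.16% and 4.19% of all genes did. The count at 48 h was 55 without replicate 1 of 10 µg/ml.

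Between 10 and 1 µg/ml no member was called at any time. The shares of all genes called lower were 0.0347%, 0.00694%, 0% and 0% at 2, 24, 48 and 72 h. Those called higher were 0.804%, 0.0416%, 0.208% and 0%. Unadjusted p-values under 0.05, given without the share of all genes, were found for 12, 14, 0 and 0 members, and DESeq2 called 0. All 14 at 24 h were higher at 10 than at 1 µg/ml. The members' log2 differences between these doses ran from -0.39 to 0.49 at 2 h, from -0.16 to 0.41 at 24 h, from -0.21 to 0.20 at 48 h and from -0.18 to 0.18 at 72 h. A difference between 10 and 1 µg/ml was thus not detectable in these genes with 3 libraries a dose, which does not show that the doses act alike.

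Levels by library show the same order of doses. The number of members in which every 100 µg/ml library lay below all 6 libraries of the lower doses was 0 at 2 h (5.53% of all genes), 73 at 24 h (8.18%), 75 at 48 h (10.5%) and 84 at 72 h (9.84%). The mean at 100 µg/ml was the lowest of the 3 doses in 88 members at 24 h, 87 at 48 h and 87 at 72 h. At 2 h the lowest mean was that of 10 µg/ml in 70 members. Of the 13 group means, that of 100 µg/ml at 72 h was the lowest in 81 members, and the highest was that of untreated cells in 48 and of 10 µg/ml at 24 h in 25. These orders of means were counted in the members alone, with no share of all genes to set beside them.

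Averaged over the doses, more members were called lower than higher at each step in time. At 24 h 50 were lower than at 2 h (28.6% of all genes) and 4 were higher (29.3%), namely Rps28 (0.19), Rps9 (0.19), Rps27rt (0.24) and Rps27 (0.25). With upper-quartile factors 18 were lower and 9 higher at this step, and at 10 µg/ml the members' mean share was higher at 24 h (9.46%) than at 2 h (8.71%). At 48 h 44 were lower than at 24 h (12.1%) and 2 were higher (12.8%), Rpl7l1 (0.21) and Rps19bp1 (0.32). At 72 h 39 were lower than at 48 h (8.27%) and 0 were higher (8.38%). The medians of the 3 steps were -0.17, -0.16 and -0.17. Means fell at every step from 2 to 72 h in 60 members at 100 µg/ml, in 8 at 10 µg/ml and in 49 at 1 µg/ml. This too was counted in the members alone, without a share of all genes.

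The members with the largest differences from untreated cells at 100 µg/ml for 72 h, Rps2, Rpsa and Rps12, belong to the small subunit. Rps2, a protein of the 40S entry for mRNA (chr17:24718121-24721927), had 1139, 1030.4 and 1063 CPM in the libraries of 100 µg/ml at 72 h, against 3797, 3620.0 and 3667 CPM in those of untreated cells. The groups lie far apart, and the log2 difference was -1.78 ± 0.10 (adjusted p = 1.146e-19). At 1 µg/ml and 72 h it had 1749, 1551 and 1559.5 CPM, above all libraries of 100 µg/ml at that time (log2 difference between 100 and 1 µg/ml -0.59 ± 0.10, adjusted p = 2.263e-05). At 24 h, however, its level at 100 µg/ml, 1682, 1979 and 1665 CPM, overlapped with that at 1 µg/ml, 2583, 1962 and 1938 CPM, and the difference of -0.28 ± 0.10 was not called (adjusted p = 0.05087). Rps2 was thus lower than in untreated cells in all groups from 24 h on, most at 100 µg/ml.

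Rpsa, a 40S protein also known as the laminin receptor precursor (chr9:120127766-120132369), had 1197, 1068 and 1099 CPM at 100 µg/ml for 72 h, against 3185, 3236 and 3161 CPM in untreated cells (log2 difference -1.51 ± 0.08, adjusted p = 1.167e-20). Against 1 µg/ml, with 1598, 1579 and 1541 CPM, the difference was -0.49 ± 0.08. As for Rps2, the 3 groups do not overlap. Relative to untreated cells the 1 µg/ml group at 72 h differed by -1.19 for Rps2 and by -1.02 for Rpsa, while the median over the members was -0.39.

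Rps6, the target of the S6 kinases and a read-out of growth signalling (chr4:86854099-86857367), had 389, 321 and 356 CPM at 100 µg/ml for 72 h, against 859, 869 and 806 CPM in untreated cells. No library of one group reached the other, and the difference was -1.25 ± 0.10 (adjusted p = 1.984e-14). Between 100 and 1 µg/ml it was -0.53 at 24 h, -0.47 at 48 h and -0.67 ± 0.10 at 72 h. Rps12 and Rps16, also of the 40S subunit, had log2 differences of -1.37 and -1.30 between 100 µg/ml at 72 h and untreated cells. Rps29 had differences between 100 and 1 µg/ml of -0.17 at 24 h and -0.22 at 48 h, neither called, and of -0.64 at 72 h.

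Rps9 and Rps27, 40S proteins, and Rps27rt, a copy of Rps27 by its name, were among the members that differed least from untreated cells at 100 µg/ml for 72 h, although at 10 µg/ml for 24 h they were among the 4 members called higher. Rps9 (chr7:3703954-3706897) had 2005, 2073 and 2082 CPM at 100 µg/ml for 72 h, against 2625, 2543 and 2621 CPM in untreated cells, and these groups do not overlap (-0.34 ± 0.12, adjusted p = 0.02438). In the libraries of 1 µg/ml at 72 h its level was 2368, 2181 and 3418 CPM, and the third of these is far above the other two. Rps27 had 218, 284 and 278 CPM at 100 µg/ml for 72 h, against 463, 385 and 420 CPM at 1 µg/ml (-0.70, adjusted p = 4.569e-05). The doses do not overlap, although Rps27 at 100 µg/ml differed from untreated cells by -0.17 at 24 h and by -0.12 at 48 h, neither of which was called. Rps27rt followed it, with -0.72 between 100 and 1 µg/ml at 72 h and -0.53 against untreated cells.

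In the large subunit, the member with the lowest difference between 100 and 1 µg/ml at 24 and 72 h was Rpl22l1, a paralogue of Rpl22 (chr3:28805508-28807424). It had 159, 161 and 146 CPM at 100 µg/ml for 24 h, against 391.7, 268 and 220 CPM at 1 µg/ml. The doses do not overlap, and the 1 µg/ml libraries are widely spread (-0.92 ± 0.14, adjusted p = 3.766e-06). At 72 h it had 119, 109 and 118 CPM at 100 µg/ml, against 264, 211 and 196 CPM at 1 µg/ml (-0.95 ± 0.14, adjusted p = 3.45e-06). Rpl22 itself had differences of -0.44 and -0.47 at these times, and whether the paralogues differ in their response was not tested.

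Rpl36, a 60S protein (chr17:56610094-56614246), had 312, 295 and 320 CPM at 100 µg/ml for 24 h, against 571, 586 and 468 CPM at 1 µg/ml, without overlap (-0.81 ± 0.10, adjusted p = 9.13e-08). At 2 h it had 531, 464 and 544 CPM at 100 µg/ml, against 412, 440 and 481 CPM at 1 µg/ml, and those groups overlap. Rpl35a, also of the 60S subunit, had 256, 269 and 312 CPM at 100 µg/ml for 72 h, against 583, 484 and 536 CPM at 1 µg/ml. In the same groups Rps28, of the 40S subunit, had 348, 429 and 405 CPM at 100 µg/ml, against 758, 669 and 728 CPM at 1 µg/ml. Neither gene overlaps between doses, with log2 differences of -0.94 ± 0.12 for Rpl35a and -0.86 ± 0.12 for Rps28. Rpl28 differed by -0.82 ± 0.10 in that comparison, and Rpl13 by -0.68 at 24 h. Rpl12 and Rpl13a, also of the 60S subunit, differed from untreated cells by -1.19 and -0.98 at 100 µg/ml for 48 h.

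The stalk proteins, which recruit the elongation factors to the ribosome, were among the members that fell. Rplp0, the base of the stalk, had 2066, 1869 and 1821 CPM at 100 µg/ml for 72 h, against 3405, 3457 and 3202 CPM in untreated cells, with no overlap (-0.80 ± 0.08). Between 100 and 1 µg/ml it differed by -0.20 at 24 h, which was not called, by -0.34 at 48 h and by -0.47 at 72 h. Its partners Rplp1 and Rplp2 differed by -0.49 and -0.59 at 24 h and by -0.58 and -0.62 at 72 h, all called. Rps27a, which is made as a fusion with ubiquitin, had -0.58, -0.45 and -0.57 at the 3 later times. The small 60S proteins Rpl39, which lines the exit tunnel, and Rpl41 had -0.78 and -0.44 at 72 h. Rpl41 had -0.18 at 48 h, which was not called.

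**Figure D3:**
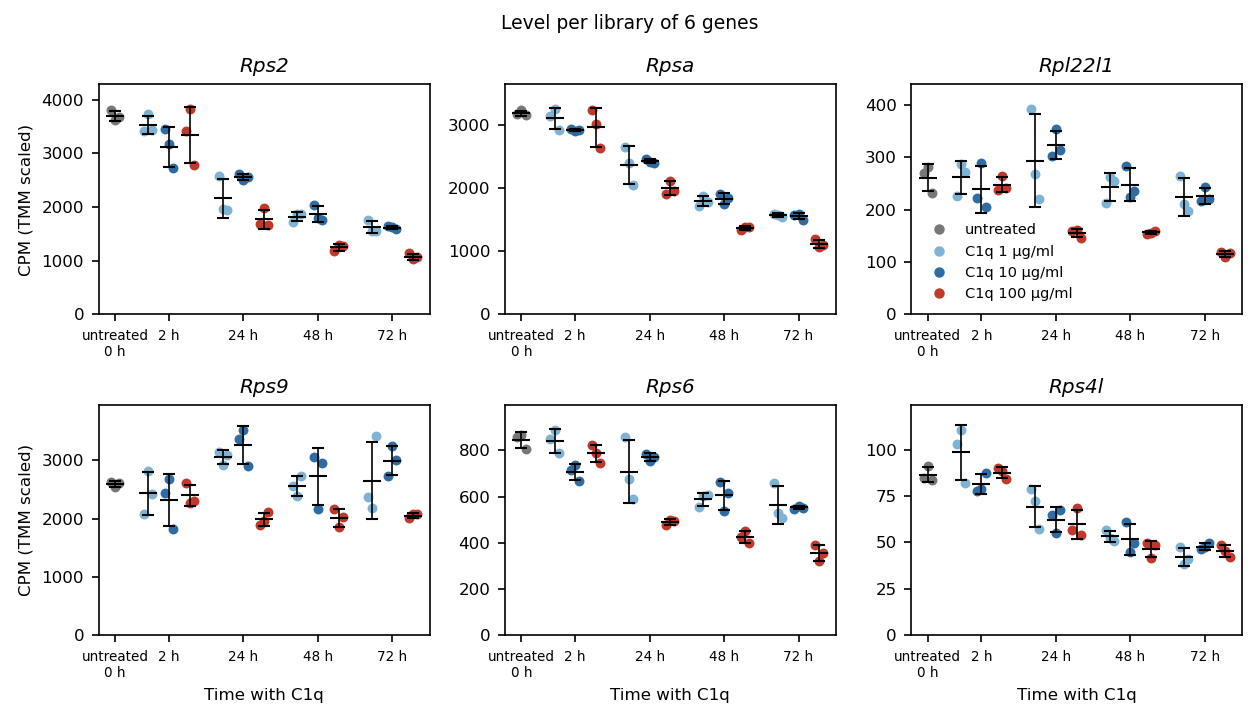
Level (CPM) of Rps2, Rpsa, Rpl22l1, Rps9, Rps6 and Rps4l in each of the 39 libraries by C1q dose and time; points are libraries, bars the mean ± SD of 3. Rps2 at 100 µg/ml and 72 h lies between 1030.4 and 1139 CPM, below all other groups, while Rps4l at 72 h overlaps between the doses.

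The genes with other names varied more among themselves. Rps4l, an S4-like gene (chr6:148354656-148355596), had 48.9, 45.3 and 42.1 CPM at 100 µg/ml for 72 h, against 84.5, 91.1 and 83.9 CPM in untreated cells, and fell (-0.93 ± 0.13). Against 1 µg/ml, with 47.5, 38.1 and 41.1 CPM, the libraries overlapped and the difference was 0.11 ± 0.14 (adjusted p = 0.7058). Rps4x, the 40S protein gene it resembles by name, had -0.57 in that comparison.

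Rps19bp1, which encodes a protein that binds Rps19 and is no part of the ribosome, had log2 differences of -0.28, 0.01 and -0.10 between 100 and 1 µg/ml at 24, 48 and 72 h. None was called. Rpl7l1, related to Rpl7, had -0.04 at 24 h, -0.43 at 48 h and -0.18 at 72 h, of which that at 48 h was called. Rpl6l had -0.57, -0.39 and -0.32, the last of them not called.

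Rpl32l, at 15.1, 15.9 and 19.4 CPM at 100 µg/ml for 72 h, against 28.4, 26.5 and 32.1 CPM at 1 µg/ml, had -0.80 ± 0.17 at 48 h (adjusted p = 0.001294) and -0.78 at 72 h, and -0.16 at 24 h, which was not called. Rps23rg1, a retrogene of Rps23, had 13.6, 17.4 and 9.72 CPM at 100 µg/ml for 72 h, against 21.6, 18.1 and 30.4 CPM at 1 µg/ml (-0.76 ± 0.26). Rps27l, Rpl36al and Rpl37rt had differences of -0.54, -0.62 and -0.70 at 72 h, all called. Reads of such copies and of their parent genes may be split between rows, so the values of retrogenes and near-identical copies are uncertain.

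Fau, a cytosolic ribosomal protein gene whose symbol the rule does not match, encodes S30 fused to a ubiquitin-like protein. It had 517, 434 and 468 CPM at 100 µg/ml for 72 h, against 790, 754 and 681 CPM in untreated cells, and fell (-0.65 ± 0.10, adjusted p = 4.117e-07). These groups do not overlap. Between 100 and 1 µg/ml Fau had log2 differences of -0.45 at 24 h and -0.54 at 72 h, both called.

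Other genes of translation were compared through lists chosen with earlier results of these data known. Their counts stand beside the shares of all genes given above: between 100 and 1 µg/ml 1.94%, 7.21%, 6.44% and 6.51% were lower at 2, 24, 48 and 72 h, and against untreated cells at 100 µg/ml for 72 h 23.3% were lower and 22.5% higher. Of 20 elongation factors and other genes with TOP mRNAs, 0 were called between 100 and 1 µg/ml at 2 h, 13 fell at 24 h (median -0.35), 14 at 48 h (median -0.34) and 15 at 72 h (median -0.38). The lowest of those called at 24 h was Npm1, a nucleolar chaperone (-0.57 ± 0.11), and the highest Eef1a1, which brings tRNA to the ribosome (-0.30 ± 0.07). Their summed level was 11999 to 12594 CPM at 100 µg/ml for 72 h, 14915 to 16258 CPM at 1 µg/ml and 19242 to 19951 CPM in untreated cells. Against untreated cells 18 fell at 100 µg/ml and 72 h (median -0.76), with Hnrnpa1, an RNA-binding protein, at -1.83 ± 0.09 and the initiation subunit Eif3f at -0.35. This list also holds the initiation factors Eif3e, Eif3h, Eif3k, Eif3l and Eif4b, so these and Eif3f are not in the next list. Vim is counted both here and among the fibroblast markers below.

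Of 23 initiation factors 2 fell between 100 and 1 µg/ml at 2 h, 7 at 24 h (median -0.21), from Eif4h (-0.49) to Eif3g (-0.30), and 4 at 48 h (median -0.12), and at 72 h 6 fell and 1 rose (median -0.14). Against untreated cells at 72 h of 100 µg/ml 18 fell and 2 rose (median -0.50), from Eif2s1, a subunit of the factor that brings the initiator tRNA, at -1.19 ± 0.12 to Eif1, a factor of start-codon choice, at 0.53 ± 0.10. Eif1 had 352, 307 and 317 CPM there, against 242, 236 and 201 CPM in untreated cells, without overlap.

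Of 40 ribosome biogenesis factors, 6 were lower at 100 than at 1 µg/ml at 2 h (median -0.20), when no ribosomal protein gene was called between these doses. Against untreated cells at 2 h, 10 of the factors rose at 1 µg/ml (median 0.28), 12 at 10 µg/ml (median 0.30) and 1 at 100 µg/ml (median 0.07), and none fell. Of all genes 4.28%, 7.64% and 3.14% rose in these comparisons. Between 100 and 1 µg/ml 5 were lower at 24 h (median -0.09), 11 lower and 1 higher at 48 h (median -0.25), and 4 lower and 1 higher at 72 h (median -0.17). At 24 h those called ran from Nhp2 (-0.72), a protein of snoRNA particles, to Ncl (-0.32), the nucleolar protein nucleolin. Against untreated cells 35 fell at 100 µg/ml and 72 h (median -0.67). The lowest was Nop58, a core protein of box C/D snoRNA particles, with 43.8, 30.6 and 33.3 CPM at 100 µg/ml, against 121, 136 and 115 CPM in untreated cells (-1.80 ± 0.14). The highest called was Ubtf, a factor of ribosomal RNA transcription (-0.31).

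Of 78 mitochondrial ribosomal proteins, which serve the separate ribosome of mitochondria, 0 were called between 100 and 1 µg/ml at 2 h, 12 fell at 24 h (median -0.20), 3 at 48 h (median -0.10) and 9 at 72 h (median -0.16), and 59 fell at 72 h of 100 µg/ml against untreated cells (median -0.57). Mrpl54 was the lowest called in both, with 49.4, 35.2 and 34.7 CPM at 100 µg/ml for 72 h, against 109, 112 and 89.8 CPM in untreated cells (-1.39 ± 0.14), and a difference of -0.998 ± 0.13 from 1 µg/ml at 24 h. The highest called were Mrpl39 (-0.32) and Mrpl30 (-0.37).

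Of 12 snoRNA host genes 1 fell between 100 and 1 µg/ml at 2 h, 2 at 24 h, Snhg18 (-0.72) and Snhg5 (-0.58), 0 at 48 h and 2 at 72 h, and 6 fell against untreated cells at 72 h of 100 µg/ml, from Snhg4 (-1.20) to Zfas1 (-0.50). Of 24 regulators of mTORC1, TOP mRNAs and MYC, 1 fell between 100 and 1 µg/ml at 2 h, and 2 fell and 1 rose at 24 h, from Mnt (-0.59), a partner of MAX that opposes MYC, to Sesn1 (0.46), a sestrin that restrains mTORC1. At 48 h 2 fell and 1 rose, and at 72 h 0 fell and 1 rose. Against untreated cells 5 of the 24 fell and 8 rose at 72 h of 100 µg/ml, where 23.3% of all genes fell and 22.5% rose, from Myc (-1.50 ± 0.31) to Mxi1, another MYC antagonist (1.13 ± 0.19). Myc had 5.54, 5.03 and 5.55 CPM there, against 18.7, 13.6 and 13.1 CPM in untreated cells.

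**Figure D4:**
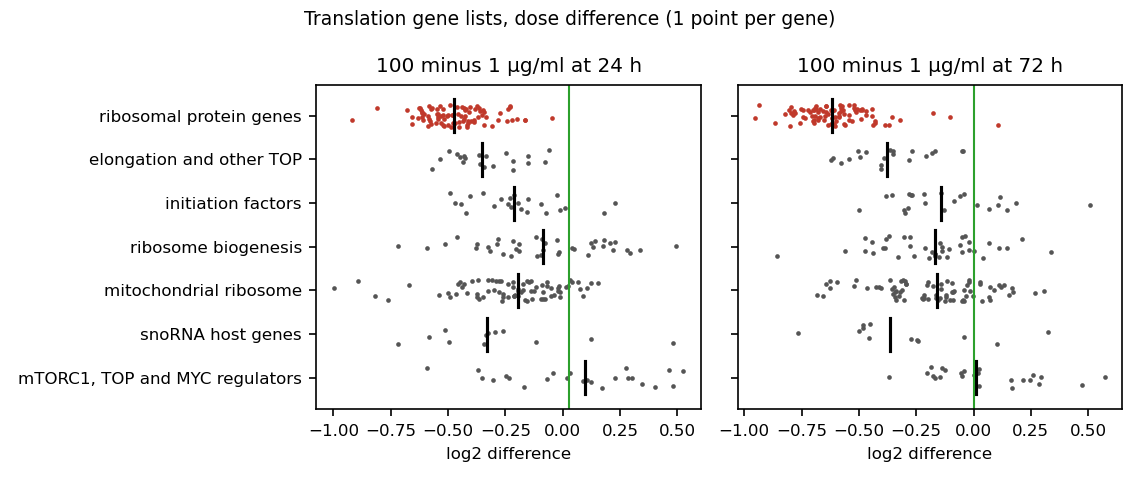
Log2 differences between 100 and 1 µg/ml at 24 h and 72 h for ribosomal protein genes and for the lists of other genes of translation, 1 point per gene. Black bars are list medians and green bars the median of all genes; the ribosomal protein genes have medians of -0.47 and -0.62 and the elongation and TOP list -0.35 and -0.38.

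Markers of other cell types and of division moved in the same libraries. The summed level of 15 macrophage and myeloid markers was 1018 to 1253 CPM at 100 µg/ml for 72 h, 1388 to 1483 CPM at 1 µg/ml and 293 to 325 CPM in untreated cells. All 15 rose at 100 µg/ml against untreated cells, and between 100 and 1 µg/ml 0 fell at 2 h, 1 at 24 h, 4 at 48 h and 8 at 72 h. At 24 h, when 76 members fell between 100 and 1 µg/ml, this sum was 433 to 458 CPM at 100 µg/ml and 431 to 467 CPM at 1 µg/ml.

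For 12 epithelial markers the sums were 143 to 168 CPM at 100 µg/ml for 72 h, 164 to 205 CPM at 1 µg/ml and 690 to 793 CPM in untreated cells, and Scgb1a1 was at 0 in all 72 h libraries of these doses. For 18 cell cycle genes they were 332 to 346 CPM at 100 µg/ml for 72 h, 419 to 461 CPM at 1 µg/ml and 1885 to 2025 CPM in untreated cells, and at 24 h 573 to 630 CPM at 100 µg/ml and 678 to 764 CPM at 1 µg/ml. All 18 fell at 100 µg/ml and 72 h against untreated cells, and between 100 and 1 µg/ml 0 fell at 2 h, 3 at 24 h, 13 at 48 h (median log2 difference -0.81) and 3 at 72 h. At 48 h, when 69 members fell between these doses, the cell cycle sum was 349 to 357 CPM at 100 µg/ml and 518 to 553 CPM at 1 µg/ml, without overlap.

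For 10 fibroblast markers the sums were 9822 to 10707 CPM at 100 µg/ml for 72 h, 8894 to 9450 CPM at 1 µg/ml and 7307 to 7958 CPM in untreated cells. Between 100 and 1 µg/ml 6 of these 10 fell at 24 h and 5 at 48 h, and at 72 h 1 fell and 2 rose.

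For 6 mesothelial markers the sums were 294 to 331 CPM at 100 µg/ml for 72 h, 445 to 517 CPM at 1 µg/ml and 292 to 327 CPM in untreated cells, and between 100 and 1 µg/ml, whose sums do not overlap, 0 fell at 24 h, 1 at 48 h and 2 at 72 h. For 10 endothelial markers the sums were 127 to 146 CPM at 100 µg/ml for 72 h, 148 to 183 CPM at 1 µg/ml and 146 to 149 CPM in untreated cells. Of the 9 of these tested, 2 fell between 100 and 1 µg/ml at 24 h, 4 at 48 h (median -0.59) and 3 at 72 h. For 7 mural markers the sums were 98.7 to 101 CPM at 100 µg/ml for 72 h, 82.2 to 93.9 CPM at 1 µg/ml and 80.1 to 88.9 CPM in untreated cells, where Higd1b was at 0, and of the 6 tested 2 fell between 100 and 1 µg/ml at 24 h, 1 at 48 h and 0 at 72 h. The epithelial markers had 2, 1 and 1 lower at these times. The part of any of these markers in the differences of the ribosomal protein genes was not tested.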

How the data were processed

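Polyadenylated RNA of mouse lung cells was read from its 5′ end in 39 libraries, per the labels' protocols. The submitters' processing notes name cutadapt 2.1.0, Bowtie2 2.4.2 and the build GRCm38; how reads were counted, and what was done with strand and repeated matches, is not given there. The deposited values are raw counts in a single table of 30012 rows and 39 columns.

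Columns were tied to samples through the title and serial number in their names, and in 9 columns with another spelling through the number alone. Whether replicates are separate cultures is not stated: the p-values describe how far these libraries vary, and that variation may be technical. All 39 replicate pairs differed beyond sampling noise (chi-square of 1.31 to 8.48 per degree of freedom, over genes with 20 or more counts in the pair), so each library was taken as a sample.

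The main test was the quasi-likelihood test of edgeR 4.0.16 (limma 3.58.1, R 4.3.3), fitted once to the counts of all 39 libraries with a mean for each group, TMM factors and the default filter, which kept 14419 genes and 99.4% of the counts. The Benjamini-Hochberg adjustment ran over all genes kept, with a threshold of 0.05. The standard error is the size of the log2 difference divided by the root of F. The 30 comparisons were each C1q group against untreated cells, all pairs of doses at each time, neighbouring times averaged over doses, and the change from 2 h of the difference between 100 and 1 µg/ml. Members and lists were chosen with earlier results of these data known. Genes named are the 3 lowest and 3 highest in the comparisons of 100 µg/ml at 24 to 72 h, risers among fallers, genes with other names, a set of core genes, and the lowest and highest called of each list; a few beside these were chosen after their values were seen. The values of 1 gene that the rule names are not reported here. Each result was also computed with DESeq2 1.42.0; with RLE, upper-quartile or total scaling; with TMM factors from other genes alone; without LOC118568312; without the filter; from the compared libraries only; at stricter thresholds (adjusted p of 0.01, log2 difference of 0.5); and with every library left out in turn. Gene coordinates and sequences are RefSeq's for GRCm38.p6, matched by symbol for 90 of 90 members, with starts for 68. Figures were drawn with matplotlib 3.10.9.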

Additional observations from a re-analysis of the deposited data

Results flagged for a closer look

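The difference between 100 and 1 µg/ml C1q itself changed with time, by a test of the interaction in edgeR's quasi-likelihood fit. At 24 and 48 h that difference crosses both spellings of the column names, and at 2 and 72 h it does not. The test of its change was not run with 1 spelling. At 24 h 45 of 88 ribosomal protein genes had a lower difference than at 2 h, where 2.79% of all genes did. The lowest was Rpl36, whose change was -1.02 ± 0.14 on the log2 scale (SE, adjusted p = 3.11e-06), and Rpl22l1 had -0.84 ± 0.19. At 48 h 24 members had a lower difference than at 2 h (1.58% of all genes), with Rpl32l lowest at -0.91 ± 0.23 (adjusted p = 0.01634). At 72 h 75 did (2.5% of all genes), with Rps23rg1 lowest at -1.30 ± 0.35 (adjusted p = 0.01808), followed by Rps28 (-0.95 ± 0.17) and Rpl35a (-0.91 ± 0.17). The changes of Rps23rg1 and Rpl36 include uncalled differences of 0.54 and 0.21 at 2 h, when both were higher at 100 µg/ml. No member had a higher difference at 24, 48 or 72 h than at 2 h, where 2.1%, 1.17% and 2.14% of all genes did.

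Leaving out single libraries gave 25 to 73 members at 24 h (25 without replicate 1 and 73 without replicate 3 of the 24 h group of 1 µg/ml), 8 to 21 at 48 h (8 without replicate 1 of the 2 h group of 100 µg/ml) and 60 to 77 at 72 h.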

How the results depend on the processing

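No paired analysis was possible because the labels give the libraries no replicate numbers that groups share. With 100 µg/ml, the members called lower against untreated cells at 24, 48 and 72 h stayed within 1.5 times their number under every alternative run. So did those against 1 µg/ml at 72 h, and all counts under DESeq2 and RLE factors. No run with 1 spelling of the column names was possible at 24 h against untreated cells, where spelling and group coincide. The median log2 difference of all genes reached 0.16 for 24 against 2 h under upper-quartile factors, and 0.17 at 100 µg/ml for 24 h against untreated cells under library totals alone, and changes are relative to it. The smaller counts depend on the threshold and on single libraries, and the depth limits genes such as Rps23rg1 and Rps19bp1, with few counts a library.

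Members called lower, 100 against 1 µg/ml, were 38 at 24 h and 14 at 48 h with a log2 difference of at least 0.5, and 45 at 48 h at an adjusted p under 0.01. With 1 spelling of the column names, where 1 library of 1 µg/ml is left, far fewer were called at 24 h and fewer at 48 h. For 100 against 10 µg/ml at 48 h, 28 had a log2 difference of at least 0.5. For the change of the 100 against 1 µg/ml difference from 2 h, an adjusted p under 0.01 gave 27 at 24 h and 8 at 48 h, and at 48 h no filter gave 45 and only the libraries compared 41.

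Against untreated cells, 10 µg/ml at 2 h had 9 lower with TMM factors without the members, 15 with library totals alone, 32 with upper-quartile factors, 6 with no filter, 10 with only the libraries compared and 0 at p under 0.01 or a log2 difference of at least 0.5. With only the libraries compared, 100 µg/ml at 2 h had 1 lower. For 1 µg/ml at 24 h these settings gave 5 (p under 0.01), 2 (log2 of at least 0.5), 2 (only the libraries compared), 8 (upper quartile) and 9 (without LOC118568312). For 10 µg/ml at 24 h they gave 4, 1, 12 and 4 in the same order, without the last setting. With a log2 difference of at least 0.5, 17 and 8 were lower at 1 and 10 µg/ml for 48 h, and 20 and 25 for 72 h.

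Over times, 24 against 2 h had 18 lower and 9 higher with upper-quartile factors, 2 higher at p under 0.01, and 2 lower and 0 higher with a log2 difference of at least 0.5. For 48 against 24 h, library totals alone gave 68 lower and 1 higher, no filter 1 higher, p under 0.01 0 higher, and a log2 difference of at least 0.5 0 of either. For 72 against 48 h the last 2 settings gave 17 and 0 lower. Higher against untreated cells were, at 10 µg/ml for 24 h, 9 with only the libraries compared, 1 at p under 0.01 and 0 with a log2 difference of at least 0.5. At 10 µg/ml for 48 h 1 was higher under TMM without the members, library totals alone and p under 0.01, and 0 with a log2 difference of at least 0.5. Where none was higher, no filter gave 1 at 1 µg/ml for 24 h, 1 for 48 h and 1 for 10 against 1 µg/ml at 24 h; upper-quartile factors gave 1 at 1 µg/ml for 48 h and 2 at 10 µg/ml for 72 h; only the libraries compared gave 2 at 1 µg/ml for 48 h, 1 for 72 h and 3 at 10 µg/ml for 72 h.

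Leaving out each library in turn, counts called lower ran from 46 to 82 for 100 against 1 µg/ml at 24 h, 38 to 68 at 48 h, 25 to 73 and 8 to 21 for the changes from 2 h at 24 and 48 h, 55 to 82 for 100 against 10 µg/ml at 48 h, 34 to 68 for 48 against 24 h and 27 to 52 for 72 against 48 h. Against untreated cells they ran from 0 to 21 at 10 µg/ml for 2 h (21 without replicate 2 of that group), 3 to 51 at 1 µg/ml for 24 h (8 and 9 without untreated replicates 2 and 1), 31 to 56 at 10 µg/ml for 48 h and 53 to 76 at 1 µg/ml for 72 h. Counts called higher ran from 2 to 4 for 24 against 2 h, 1 to 2 for 48 against 24 h, 1 to 4 at 10 µg/ml for 24 h, 1 to 1 at 10 µg/ml for 48 h and 0 to 2 at 1 µg/ml for 48 h.

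Without the row LOC118568312 in the total, the mean share of the members was 10.9% in untreated cells, 10.0%, 8.56% and 8.20% at 1 µg/ml for 2, 48 and 72 h, 10.7%, 8.76% and 8.05% at 10 µg/ml for 24, 48 and 72 h, and, at 100 µg/ml, 10.4% after 2 h, 7.93% after 24 h, 7.01% after 48 h and 5.83% after 72 h.

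Uncalled differences between 100 and 1 µg/ml changed sign as follows, and the cause was not tested. Rpl7l1 at 24 h had 0.0549 with library totals alone and 0.0931 with 1 spelling, and -0.1295 to 0.0072 without single libraries. Rps27l, Rps29 and Rps4l at 24 h had 0.073, 0.0598 and 0.0621 with 1 spelling. Rps19bp1 at 48 h had -0.0279 with no filter, and without single libraries it had -0.0049 to 0.0456 at 48 h and -0.3037 to 0.0861 at 72 h.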
